A study of Mus musculus with 9 samples.

Results

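Long-chain fatty acid uptake, intracellular binding and coenzyme A (CoA) activation were followed through 10 genes listed by name as genes of these steps, out of 24421 genes counted. They are the scavenger receptor Cd36, the fatty acid transport proteins Slc27a1, Slc27a3 and Slc27a4, the fatty acid binding proteins Fabp4 and Fabp5, and the long-chain acyl-CoA synthetases Acsl1, Acsl3, Acsl4 and Acsl5. Cell material came from 4T1, a mouse mammary carcinoma line of BALB/c origin, grown for 5 days in 3 conditions with 3 RNA-seq libraries each. Spheroids (3D) on a soft agar base were grown either without added palmitate or with 75 µM of it, and flat cultures (2D) were grown with the same 75 µM dose. All were fed medium with fetal bovine serum, which itself contains fatty acids, and the cultures without added palmitate received the albumin carrier with ethanol instead. Flat cultures lacking the palmitate supplement were not analysed here, and the growth modes could be compared only with palmitate present. One line grown in a dish holds none of the stromal cells of a tumour, and the labels do not say that replicates were separate cultures, so p-values measure the spread between these libraries, which may be technical.

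Fatty acids that reach a cell cross the membrane by diffusion or with the help of membrane proteins such as CD36 and the SLC27 (FATP) family, several of which also carry acyl-CoA synthetase activity. Inside the cell, fatty acid binding proteins carry the poorly soluble acids through the cytosol. Acyl-CoA synthetases of the ACSL family then join them to CoA, the step that traps them and commits them to oxidation, membrane lipids or storage. Members of this family differ in substrate preference: ACSL4 is known for its preference for arachidonate and other polyunsaturated acids, and ACSL1, ACSL3 and ACSL5 use common saturated and monounsaturated acids.

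Libraries held 6595514 to 31177756 counted reads, the smallest being replicate 3 of 3D with added palmitate. After removal of genes with few counts, 12575 genes were tested, among them 8 of the 10 genes of interest. Cd36 and Fabp4 did not pass this filter and are described by their reads. Levels are given as CPM, the usual sequencing unit for read counts relative to the library total, here with TMM scaling. Of 8 markers of simple epithelium all passed the filter, with a summed level of 4156 to 4496 CPM in 2D, 5210 to 5272 CPM in 3D and 5115 to 5408 CPM in 3D with palmitate. None of 6 adipocyte markers passed, none of these had more than 11 reads in a library, and Lep had none. Of 6 endothelial markers 1 passed (Tie1, at most 20 reads) and Emcn had none. Of 6 macrophage and leukocyte markers 1 passed (Cd68), the summed level lay at 24.6 to 28.0, 7.17 to 9.02 and 8.88 to 11.6 CPM in the 3 conditions in the same order, and Adgre1 had no read. Of 6 fibroblast markers 3 passed (Pdgfra, Col1a1 and Col1a2), the summed level lay at 33.2 to 34.6, 91.7 to 106.5 and 93.4 to 111.2 CPM, and Lum had no read. The higher fibroblast sum in 3D was Pdgfra alone, with means of 30.4, 97.4 and 98.8 CPM, while Col1a1 (2.18, 1.01 and 0.845 CPM) and Col1a2 (1.31, 0.018 and 0.063 CPM) had lower means in 3D. The part of these marker shifts in the results was not tested.

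In the mouse genome (GRCm38) the activating enzymes lie at chrX:142317993-142390535 (Acsl4), chr19:55251938-55297720 (Acsl5), chr1:78657825-78707743 (Acsl3) and chr8:46471037-46536051 (Acsl1). The transport proteins lie at chr8:71568882-71587302 (Slc27a1), chr2:29802634-29817522 (Slc27a4) and chr3:90385239-90389938 (Slc27a3), and Cd36 lies at chr5:17781690-17888801. Fabp5 at chr3:10012548-10016607 and Fabp4 at chr3:10204088-10208576 are near neighbours.  For Fabp5, 21.1% of the 50-base windows of its principal transcript also occur in 5 other annotated genes (Gm6166, Gm14328, Fabp5l2, Gm13998 and Gm6100). Reads from these windows could have been split, lost or assigned to the wrong gene, and the size of the error in its level is not known. Shared windows made 5.53% of Acsl5 (with 9 genes, Zdhhc6 among them), 4.05% of Acsl3 (with Utp14b), 1.75% of Slc27a1 and none of the other 6 genes. On the opposite strand, exons of Zdhhc6 cover 404 exonic bases of Acsl5 and those of Gm45244 cover 1039 of Acsl1. The library kit keeps strand, but the strand setting of the counting is not given in the sources used here. It is therefore not known whether reads of these opposite-strand pairs were separated. On the same strand, exons of Utp14b cover 244 exonic bases of Acsl3, where strand cannot separate the reads.

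Within families the coding sequences differed widely between members. By pairwise alignment, Acsl3 and Acsl4 were the closest ACSL pair at 67.7% identical bases, followed by Acsl1 with Acsl6 at 66.8% and Acsl1 with Acsl5 at 64.4%. Slc27a1 and Slc27a4 shared 67.4% and Fabp4 and Fabp5 shared 66.6%. Acsl3 and Acsl4 are shown here because these closest relatives changed in opposite directions, and Slc27a1 and Slc27a4 because their profiles over the libraries were the most alike of any pair among the 8 tested genes. For each, the 250 bases before the RefSeq transcription start (GRCm38.p6) are printed 5′ to 3′ on the gene's strand, with GGGCGG (GC box) and CCAAT matches, on either strand, in capitals. The windows are chrX:142390536-142390785 on the minus strand for Acsl4, and chr1:78657575-78657824, chr8:71568621-71568870 and chr2:29802384-29802633 on the plus strand for Acsl3, Slc27a1 (its first start) and Slc27a4.
Acsl4: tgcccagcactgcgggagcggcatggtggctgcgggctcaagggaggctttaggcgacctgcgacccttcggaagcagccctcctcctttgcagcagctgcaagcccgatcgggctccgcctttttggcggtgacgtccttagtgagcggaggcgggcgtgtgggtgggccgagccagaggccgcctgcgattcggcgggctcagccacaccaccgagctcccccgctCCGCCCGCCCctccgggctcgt
Acsl3: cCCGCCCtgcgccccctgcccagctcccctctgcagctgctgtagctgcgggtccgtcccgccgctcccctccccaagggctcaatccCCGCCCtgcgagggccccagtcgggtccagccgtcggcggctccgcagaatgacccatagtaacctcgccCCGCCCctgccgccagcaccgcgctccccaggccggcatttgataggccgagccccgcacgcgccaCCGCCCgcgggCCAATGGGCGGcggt
Slc27a1: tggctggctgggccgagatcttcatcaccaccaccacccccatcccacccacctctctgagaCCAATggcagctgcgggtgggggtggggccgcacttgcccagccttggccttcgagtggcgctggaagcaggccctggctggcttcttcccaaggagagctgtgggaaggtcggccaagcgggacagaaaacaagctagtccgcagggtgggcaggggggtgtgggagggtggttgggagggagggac
Slc27a4: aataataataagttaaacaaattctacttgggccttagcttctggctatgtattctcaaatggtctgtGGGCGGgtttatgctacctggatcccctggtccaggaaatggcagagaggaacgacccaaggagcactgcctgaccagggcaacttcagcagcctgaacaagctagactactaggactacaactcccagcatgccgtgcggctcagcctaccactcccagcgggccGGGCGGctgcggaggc
The Acsl3 window held 5 GGGCGG matches and 1 CCAAT match, and the Acsl4 window 2 GGGCGG matches that overlap each other and no CCAAT. The Slc27a4 window held 2 GGGCGG matches and the printed Slc27a1 window 1 CCAAT match. The second Slc27a1 start, not printed, had 1 GGGCGG match, and the third had 3 GGGCGG matches and 1 CCAAT match. GGGCGG occurs in 32.7% and CCAAT in 33.9% of 32851 mouse promoter windows of this length, so neither is rare. The other motifs searched were AGGTCA (a nuclear receptor motif, in 14.02% of windows), TCACNCCAC (a sterol response element, 1.05%), CACGTG (an E-box, 6.02%) and TATAAA (12.4%). Over the 11 starts of the 8 genes with an entry, AGGTCA matched only in Cd36, TCACNCCAC only at the second Acsl1 start, CACGTG only at the third Slc27a1 start and TATAAA in none. These matches are descriptions of the letters only.

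Levels between genes were compared per length, as CPM per kb of the principal transcript. In both 3D conditions the synthetase Acsl4 stood highest, at 191 CPM per kb without and 167 with palmitate, followed by Acsl5 at 106 and 105 and Slc27a1 at 45.5 and 44.7. In 2D the order was different: Acsl5 stood highest at 92.9 CPM per kb, followed by Fabp5 at 84.6 and Acsl4 at 44.9. Acsl3 lay at 37.5 CPM per kb in 2D, 30.4 in 3D and 27.3 in 3D with palmitate. Below these came Acsl1 (6.19 to 7.29 over the condition means), Slc27a4 (3.92 to 5.94), Slc27a3 (1.94 to 2.57) and Fabp4 (0.250 to 0.603). Neighbours in this order did not overlap in 2D. In 3D Acsl1 and Slc27a4 overlapped, and in 3D with palmitate Acsl3 and Fabp5 did as well, so their order there is not settled by 3 libraries. The choice of length matters for short transcripts: per kb of coding length, an alternative chosen after seeing the data, Fabp5 stood first in 2D at 206 and Acsl5 followed at 192. By that measure Acsl4 (474 and 414) and Acsl5 (219.8 and 217) were still the top pair in both 3D conditions, and Fabp5 overlapped with both Slc27a1 and Acsl3 there.

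**Figure D1:**
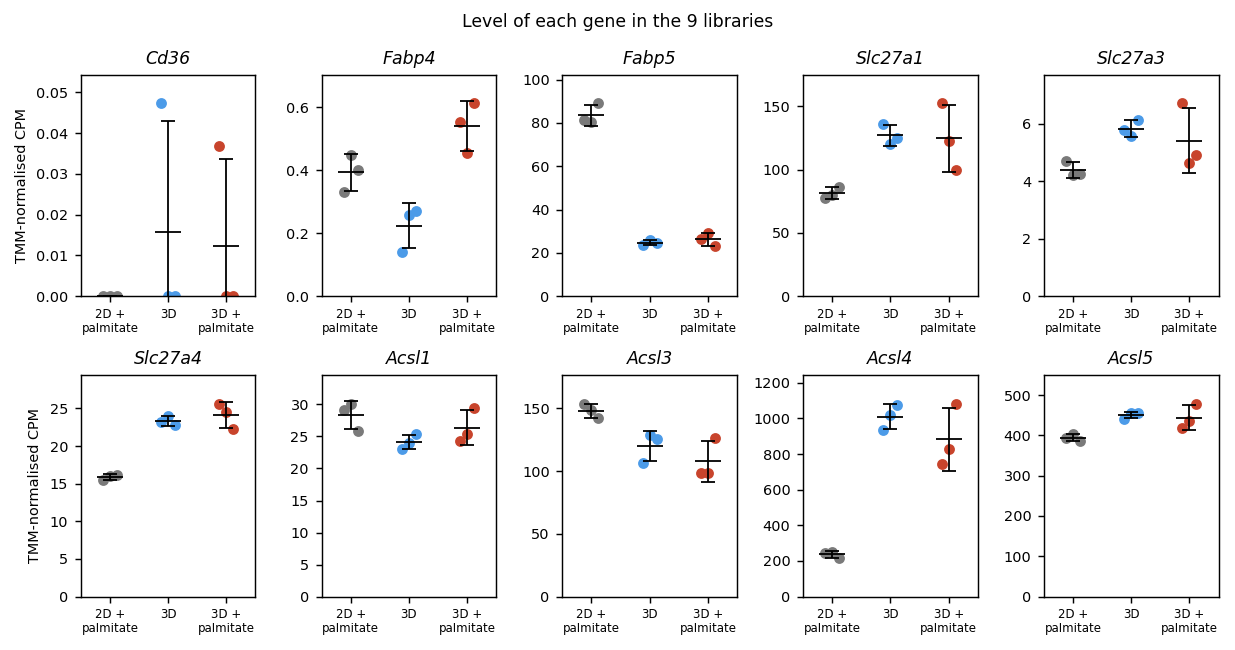
Level of each of the 10 genes in the 9 libraries in TMM-normalised CPM, 1 panel per gene with an axis that starts at 0. Points are libraries (grey 2D with palmitate, blue 3D, red 3D with palmitate), the horizontal line is the mean and the bars are ± 1 SD (n = 3). Acsl4 lies between 216 and 251 CPM in 2D and between 742 and 1082 CPM in 3D, and Fabp5 does the reverse, with 80.3 to 89.0 CPM in 2D and 23.3 to 29.0 CPM in 3D.

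The comparison of 3D with 2D, both with added palmitate, asked which of these genes differ with the mode of growth. By the quasi-likelihood test of edgeR, with Benjamini-Hochberg adjustment over all 12575 genes, 7 of the 8 tested genes were called at an adjusted p under 0.05. Slc27a1, Slc27a3, Slc27a4, Acsl4 and Acsl5 were higher in 3D, and Fabp5 and Acsl3 were lower. This has to be read against a background in which 68.3% of all tested genes were called, 34.5% higher and 33.9% lower. The list was not drawn up blind to these data, so its counts are a description. The 3 libraries of each condition did not overlap for 6 of the 8 genes, against 69.4% of all tested genes. The median log2 fold change of the 8 genes was 0.28 and the median of its absolute size 0.54, beside 0.0083 and 0.43 over all tested genes. In bulk RNA, a change in the share of cells that express a gene and a change in RNA per cell cannot be told apart.

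Among the proteins of uptake, Cd36, which binds long-chain fatty acids at the cell surface, was almost without reads in every condition. One read was counted in replicate 1 of 3D, 1 in replicate 1 of 3D with palmitate, and none in the other 7 libraries. Over the pooled 65626348 reads of 2D, a count of 0 allows up to 0.0457 CPM (unscaled) by counting error alone. Changes of Cd36 RNA below such levels were not detectable at this depth.

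Slc27a1 (FATP1), a transport protein best known from muscle and fat, was the most abundant transporter. Its levels were 77.2, 80.1 and 86.4 CPM in 2D and 152, 123 and 99.4 CPM in 3D with palmitate. Every 3D library lay above every 2D library, but the 3D libraries with palmitate spread widely (125 ± 26.5, SD, n = 3), and replicate 3 came closest to 2D. The log2 fold change was 0.64 (SE 0.114, 95% interval 0.39 to 0.88, adjusted p = 0.000174, edgeR), a 1.55-fold higher level. Slc27a4 (FATP4), which has acyl-CoA synthetase activity of its own, had 15.5, 16.0 and 16.2 CPM in 2D and 25.6, 24.5 and 22.2 CPM in 3D with palmitate. The conditions did not overlap, and the log2 fold change was 0.61 (SE 0.0813, 95% interval 0.44 to 0.79, adjusted p = 1.01e-05, edgeR). Slc27a3, the other transport protein, was scarce, with 4.71, 4.20 and 4.23 CPM in 2D and 6.70, 4.63 and 4.90 CPM in 3D with palmitate. Here the conditions overlapped and the call was weak: the log2 fold change was 0.39 (SE 0.154, adjusted p = 0.0354, edgeR), and 0.13 (adjusted p = 0.529) without replicate 1 of 3D with palmitate. It also failed to pass without replicate 2 (0.35, adjusted p = 0.115) or 3 (0.37, adjusted p = 0.0875) of 2D. The make-up of this family differed little between conditions: per length, Slc27a1 made 82.1% of the Slc27 sum in 2D, 83.7% in 3D and 83.2% in 3D with palmitate, and the family sum was 35.4 ± 1.60, 54.3 ± 2.95 and 53.5 ± 10.3 CPM per kb (SD, n = 3).

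Of Fabp4 and Fabp5, these cells mainly expressed Fabp5, the epidermal type, found in many carcinomas. It had 81.3, 80.3 and 89.0 CPM in 2D, 26.4, 29.0 and 23.3 CPM in 3D with palmitate, and 23.9, 26.0 and 24.6 CPM in 3D without it. All 6 3D libraries lay far below the 2D libraries. The log2 fold change between 3D and 2D was -1.66 (SE 0.0807, 95% interval -1.83 to -1.48, adjusted p = 3.02e-10, edgeR), a 3.15-fold lower level. With the GC content and length trend of every library removed, it was -1.25. Fabp4, the adipocyte type, had between 3 and 15 reads in a library, at 0.331, 0.448 and 0.401 CPM in 2D and 0.552, 0.456 and 0.613 CPM in 3D with palmitate. The conditions did not overlap, by a narrow margin, and an exact two-sided permutation test gave p = 0.1, the smallest that this design allows. Pooled over libraries, the Fabp4 ratio of 3D to 2D was 1.29, with a counting interval of 0.718 to 2.31, so no difference could be shown at this depth.

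Acsl4 showed the widest difference of the 8 genes. It had 243, 251 and 216 CPM in 2D and 742, 826 and 1082 CPM in 3D with palmitate, and the lowest 3D library lay far above the highest 2D library. The log2 fold change was 1.90 (SE 0.115, 95% interval 1.65 to 2.14, adjusted p = 2.97e-09, edgeR), a 3.72-fold higher level. Its closest relative by sequence, Acsl3, an enzyme of the endoplasmic reticulum and lipid droplets, moved the other way. It had 154, 148 and 142 CPM in 2D and 98.2, 98.8 and 126 CPM in 3D with palmitate, without overlap, for a log2 fold change of -0.47 (SE 0.0954, 95% interval -0.68 to -0.27, adjusted p = 0.000494, edgeR). Utp14b, which shares some windows with Acsl3, stood at 0.36 on the log2 scale in the same fit (adjusted p = 0.0947).

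Acsl5, an enzyme of mitochondria and the endoplasmic reticulum best known from intestine, was abundant everywhere and changed little. It had 394, 403 and 386 CPM in 2D and 418, 435 and 478 CPM in 3D with palmitate. The conditions did not overlap, and the log2 fold change was 0.17 (SE 0.0616, 95% interval 0.04 to 0.30, adjusted p = 0.0240, edgeR). This small difference was not called after removal of the GC content and length trend (0.02, adjusted p = 0.651) or without replicate 3 of 3D with palmitate (0.11, adjusted p = 0.0615), nor without replicate 1 (adjusted p = 0.0801) or 3 (adjusted p = 0.0748) of 2D. Zdhhc6, on the opposite strand, was lower in 3D, at -0.21 on the log2 scale (edgeR adjusted p = 0.00725). Acsl1, an enzyme prominent in fat, liver and heart, had 29.2, 30.1 and 25.9 CPM in 2D and 24.3, 25.4 and 29.4 CPM in 3D with palmitate. The conditions overlapped, and its log2 fold change of -0.13 (95% interval -0.32 to 0.06, adjusted p = 0.205, edgeR) did not pass. It was called lower after removal of the GC content and length trend (-0.25, adjusted p = 0.00385) and without replicate 3 of 3D with palmitate (-0.20, adjusted p = 0.0479).

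**Figure D2:**
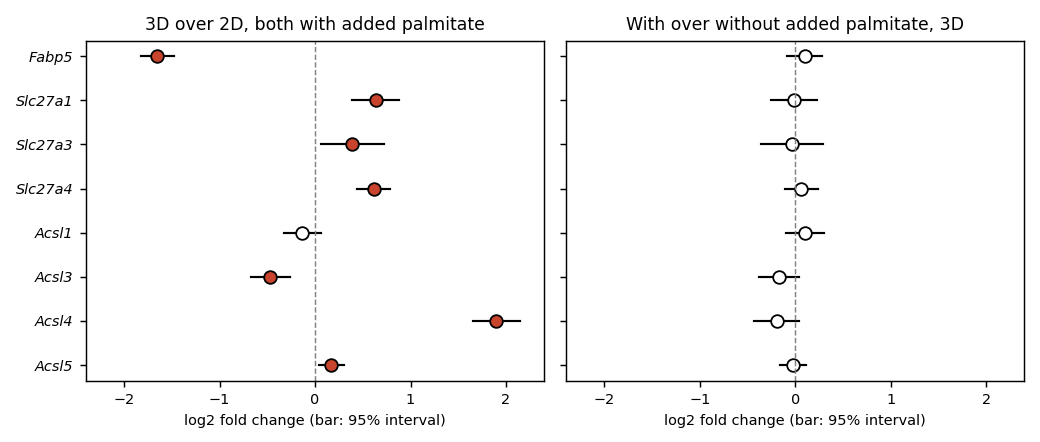
log2 fold change of the 8 tested genes in both comparisons, with 95% intervals from the edgeR fit. Filled points have an adjusted p under 0.05. For 3D over 2D the points run from -1.66 (Fabp5) to 1.90 (Acsl4), and for added palmitate in 3D all 8 open points lie between -0.20 and 0.10.

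The opposite movements changed the make-up of the ACSL family. Per length, and with Acsl6 included, Acsl4 made 24.4% ± 0.950 of the summed family level in 2D, 57.1% ± 1.01 in 3D and 54.3% ± 2.69 in 3D with palmitate (SD, n = 3). Acsl5 went from 50.6% ± 1.10 in 2D to 31.7% ± 1.19 and 34.3% ± 2.56, and Acsl3 from 20.4% ± 0.495 to 9.08% ± 0.510 and 8.89% ± 0.294. Acsl1 made 3.96% of the sum in 2D, 1.85% in 3D and 2.22% in 3D with palmitate. The ratio of Acsl4 to Acsl5 per length was 0.483 ± 0.0283, 1.80 ± 0.0973 and 1.59 ± 0.203, so the leading enzyme by RNA was Acsl5 in every 2D library and Acsl4 in every 3D library. The summed family level was 184 ± 7.17 CPM per kb in 2D, 335 ± 17.8 in 3D and 307 ± 45.7 in 3D with palmitate. Without Acsl4 the sums were 139 ± 3.71, 144 ± 4.98 and 140 ± 12.2 CPM per kb, so the higher 3D total lay in Acsl4. Per coding length instead of transcript length, Acsl4 made 28.7%, 62.2% and 59.4% of the sum and Acsl5 49.7%, 28.9% and 31.4%. These shares describe RNA levels and carry no test of their own.

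**Figure D3:**
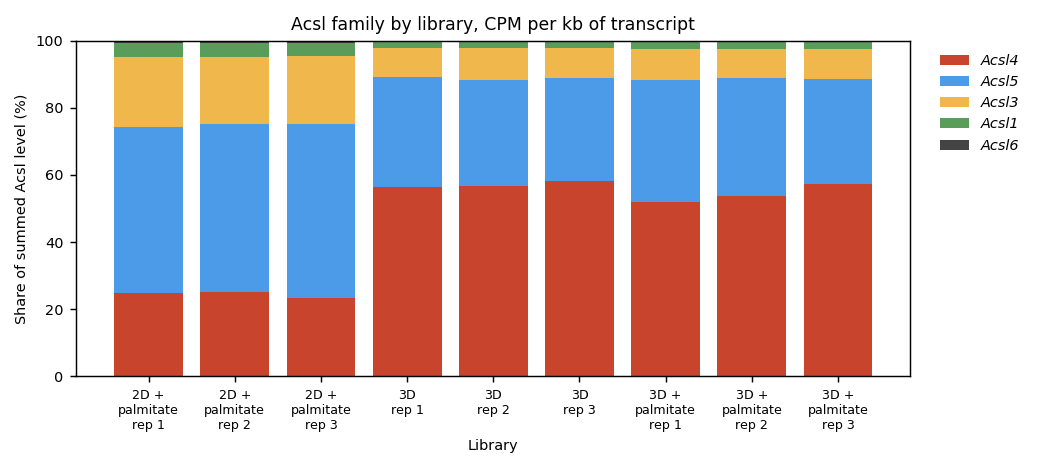
Share of each Acsl gene in the summed family level (CPM per kb of transcript, percent), 1 bar per library. Acsl4 (red) makes the second largest part of each 2D bar, after Acsl5, with a mean of 24.4%. It makes over 50% of each 3D bar, with means of 57.1% and 54.3%. Acsl5 (blue) and Acsl3 (yellow) take correspondingly smaller shares in 3D.

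The comparison of 3D with and without added palmitate asked whether more of the substrate goes with a change of these genes. None of the 8 tested genes was called by edgeR, beside a background of 2.19% of all tested genes. None had an unadjusted edgeR p under 0.05, beside 2170 of all 12575 genes, and none was called by DESeq2, beside 395 of 11460 genes. No gene was without overlap between the conditions, against 18.6% of all tested genes. The median log2 fold change of the 8 genes was -0.016 and the median absolute size 0.082, beside 0.0077 and 0.10 over all tested genes. In the fit of all 9 libraries, the 95% intervals of the fold over the 8 genes ran from 0.741 (the lower end for Acsl4) to 1.23 (the upper end for Acsl1). They do not bound the change in general, as intervals with a library left out were not computed. Without replicate 3 of 3D with palmitate, the log2 fold change of Acsl4 was -0.37. This comparison shares the 3D libraries with palmitate with the comparison of 3D and 2D, so the results are not independent.

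Acsl4 had 936, 1018 and 1076 CPM without palmitate and 742, 826 and 1082 CPM with it. Replicates 1 and 2 with palmitate lay below all libraries without it, and replicate 3 lay above them. The log2 fold change was -0.20 (95% interval -0.43 to 0.04, adjusted p = 0.386, edgeR). Acsl3 had 107, 129 and 125 CPM without and 98.2, 98.8 and 126 CPM with palmitate, where replicates 1 and 2 were again the lowest and replicate 3 lay within the range without palmitate (-0.17, 95% interval -0.38 to 0.03, adjusted p = 0.384). Without replicate 3 of 3D with palmitate, the smallest library, edgeR called both lower, Acsl4 by -0.37 (adjusted p = 0.00360) and Acsl3 by -0.29 (adjusted p = 0.0161). In that fit 14.9% of 12787 genes were called, so calls of many other genes turned on this library too.

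Among the remaining genes, Fabp5 and Acsl1 each had a log2 fold change of 0.10 with palmitate (edgeR adjusted p = 0.607 and 0.617). Slc27a4 stood at 0.06, Slc27a1 at -0.01, Slc27a3 at -0.04 and Acsl5 at -0.02. Acsl5, with 441, 455 and 455 CPM without and 418, 435 and 478 CPM with palmitate, had the tightest interval, from -0.15 to 0.11. The spread was wider with palmitate than without it for all 8 genes: for Slc27a1 the coefficient of variation was 6.53% without and 21.2% with palmitate, and for Slc27a3 4.98% and 20.8%. This spread was not tested, and how many of all genes show the same was not counted. The 3D libraries with palmitate also differed more in size, with 6595514 to 27047217 reads beside 15293752 to 20785643 without it. No response of these 8 genes in particular is read from the spread.

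Fabp4 was the one gene of the 10 whose libraries did not overlap in this comparison, on very few reads. It had 0.142, 0.258 and 0.271 CPM without and 0.552, 0.456 and 0.613 CPM with palmitate, from 12 reads pooled without and 25 pooled with palmitate. The pooled ratio was 2.42, with an interval of 1.17 to 5.28 that covers counting error only. An exact two-sided permutation test on the 3 against 3 levels gave p = 0.1, the smallest that this design allows. In an edgeR fit without the filter on low counts the log2 fold change was 1.24 with an adjusted p of 0.282, so the difference did not pass.

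A list of 63 other genes of the same steps was read beside them, of which 34 were tested. Between 3D and 2D 26 of 34 were called, 12 higher and 14 lower, beside 68.3% of all tested genes called (34.5% higher and 33.9% lower), and the median log2 fold change was -0.0088. Among 13 tested genes of uptake and lipoprotein entry 5 were higher and 6 lower. The higher ones included the endocytic receptor Lrp1 (1.39, edgeR adjusted p = 2.03e-10), the lipase Lipg (1.17, adjusted p = 4.58e-08) and the lysosomal membrane protein Scarb2 (0.86, adjusted p = 1.16e-06). The lower ones included Mfsd2a, a transporter of lysophosphatidylcholine (-1.50, adjusted p = 4.45e-08), the caveolar coat protein Cav1 (-0.94, adjusted p = 1.43e-07) and the lipoprotein receptor Scarb1 (-0.67, adjusted p = 4.62e-06). Of the 8 tested binding genes 4 were higher and 3 lower. With so many of all genes called, nothing particular to either group is read from these counts. Dbi, the acyl-CoA binding protein, was lower, like Fabp5 (-0.75, adjusted p = 1.61e-07).

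Of the 7 other tested activating enzymes, 1 was higher and 3 lower in 3D (57.1% called, beside 68.3% of all tested genes). The higher one was Acsbg1, a synthetase of very-long-chain acids (0.96, edgeR adjusted p = 3.53e-08). Of 6 tested genes listed under CD36 handling (66.7% called, beside the same 68.3%), 2 were higher. They were the palmitoyltransferase Zdhhc5 (0.97, adjusted p = 7.42e-08) and the kinase Lyn (1.06, adjusted p = 2.31e-08). The 2 lower ones were the kinase Fyn (-0.60, adjusted p = 3.36e-06) and the lysophospholipid acyltransferase Lpcat3 (-0.58, adjusted p = 2.29e-06). Cd36 itself had at most 1 read in a library, and a role of the listed genes in handling CD36 was not shown here. The shares called in both groups lie below that of all tested genes, so nothing particular to either group is read from them. With added palmitate in 3D, 2 of the 34 genes were called, beside 2.19% of all tested genes, and nothing is read from so small a count. Acsbg1 rose from 149 to 200 CPM (log2 fold change 0.43, edgeR adjusted p = 0.00770), and Lipg fell from 250 to 189 CPM (-0.41, adjusted p = 0.0310). Neither call held when the share of Rn45s, a ribosomal RNA precursor, was a covariate, nor without replicate 3 of 3D or replicate 2 of 3D with palmitate, and that of Lipg was also lost with the replicate block and without replicate 1 of either condition.

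**Figure D4:**
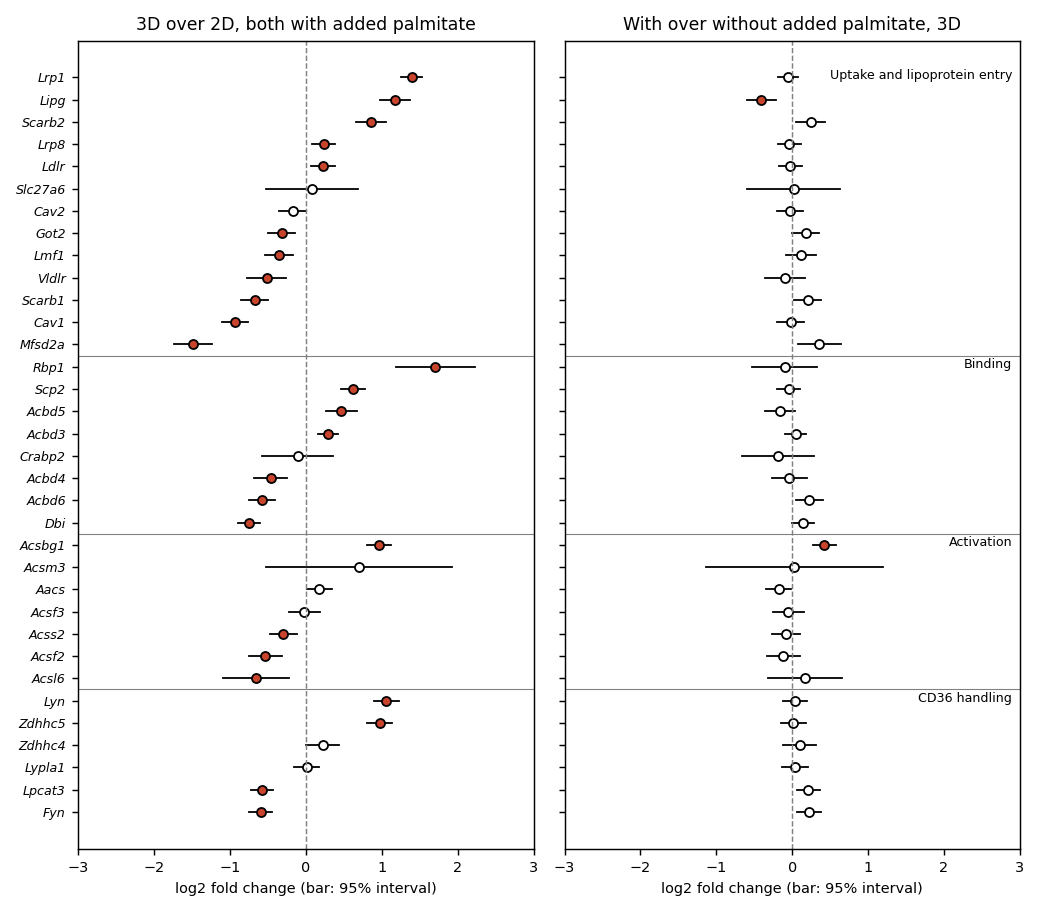
log2 fold change of the 34 tested genes of the related list in both comparisons, by group, with 95% intervals from the edgeR fit and filled points for an adjusted p under 0.05. On the left 12 filled points lie above 0 and 14 below it, and on the right only Acsbg1 (0.43) and Lipg (-0.41) are filled.

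The profiles of the 8 tested genes over the 9 libraries were compared by the root mean square difference of centred log2 CPM. Within the set, Slc27a1 and Slc27a4 were nearest to each other (0.123), and Acsl1 was nearest to Acsl3 (0.170). Acsl4 and Fabp5 had no near neighbour in the set: the nearest were Slc27a4 at 0.704 for Acsl4 and Acsl3 at 0.658 for Fabp5. Among all tested genes, those nearest to Acsl4 were Jak2 (0.0593), Narf (0.0697) and Inpp4b (0.0708), and those nearest to Fabp5 were Rcor2 (0.0993), Cited2 (0.0998) and Thbs3 (0.101). For Slc27a1 they were Ifi27 (0.0454), Dos and Slc6a9, and for Slc27a3 Rnf167 (0.0793), Nr4a2 and Snai1. For Acsl3 they were Cyp51 (0.0497), Smc3 and Rbbp8, for Acsl1 Ibtk (0.0331), Eif4g1 and Uhrf1bp1l, and for Acsl5 Ubap2l (0.0171), Chd8 and Copb1. The smallest differences belong to the genes that vary least, and the 9 libraries differ in depth as well as in condition, so these are descriptions.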

How the data were processed

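RNA-seq counts of 9 libraries of 4T1 cells (3 conditions, 3 libraries each) were used. The deposited table holds raw, unnormalised read counts of each gene, 1 column per library. Per the study's methods and the submitters' processing notes, 50 bp single-end reads were inspected with FastQC 0.11.9, aligned to GRCm38 with HISAT2 2.1.0 and counted with HTSeq. The annotation release and strand setting are not given in the sources used here. Groups and replicate numbers came from the labels.

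Differences were fitted with edgeR 4.0.16 under R 4.3.3 (filterByExpr, TMM scaling, quasi-likelihood fit of condition to all 9 libraries). The contrasts were 3D against 2D, both with palmitate, and with against without palmitate in 3D. Genes were called at a Benjamini-Hochberg adjusted p under 0.05 over 12575 genes. SEs were taken as the absolute log2 fold change over the root of F. On simulated data with 200 genes changed by a log2 fold of 1, each contrast recovered 186 among 12407 genes. False calls were 5 for 3D against 2D and 10 for palmitate. Smaller changes, and a setting where most genes change, were not simulated.

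Genes were placed with GENCODE annotation of GRCm38, and 8 of 10 genes matched RefSeq promoters. The members and lists were chosen with earlier results of these data known. All 10 genes are named, with up to 6 higher and 6 lower called genes of the related list per comparison (smallest p) and the 3 most alike profiles per gene, of which those for Slc27a4 are not reported here. Alternatives were RLE or library-size scaling, other count filters, the compared conditions alone, the replicate number as a block, Rn45s share as covariate, GC content and length trend removed, DESeq2 1.42.0, a minimum absolute log2 fold change of 0.5, and each library left out. Intervals on pooled reads cover counting error only.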

Additional observations from a re-analysis of the deposited data

How the results depend on the processing

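Over the alternatives, 216 log2 fold changes of the 8 genes kept their direction and side of the threshold, 12 lost a call, 4 gained one and 8 changed sign. Acsl4, Fabp5, Slc27a1, Slc27a4 and Acsl3 were called in 3D against 2D under every alternative but the minimum change of 0.5, which left 4 of the 7 calls (all but Slc27a3, Acsl5 and Acsl3). Leaving out 1 library gave 5 to 7 calls for 3D against 2D, and 0 to 2 for palmitate. The related list gave 25 to 29 and 0 to 8 calls in the same fits. For palmitate it gave 1 call with the replicate block, 0 with Rn45s share as covariate, 4 with the GC content and length trend removed and 0 with the minimum change of 0.5. Slc27a3 was not called in 3D against 2D without the filter on low counts (0.37), with the compared conditions alone (0.39), with DESeq2 (0.36) or with the replicate block (0.33), and Acsl5 not without the filter on low counts (0.14). Both also lost the call in 3 fits each that left out 1 library. Reversed signs were found only for palmitate, where the values lay close to 0: Slc27a3 at 0.015 and Acsl5 at 0.0090 with the Rn45s share as covariate, and, on leaving out 1 library, -0.18 to 0.12 for Slc27a1, -0.30 to 0.077 for Slc27a3 and -0.080 to 0.017 for Acsl5. The cause was not tested.

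Over all genes, palmitate calls ranged from 44 with the Rn45s share as covariate to 1901 without replicate 3 of 3D with palmitate, with 275 as reported, 111 with the replicate block, 77 with the compared conditions alone, 617 without the filter and 990 with the GC content and length trend removed. Of the 275, 173 were higher, beside 106 of 227 with library-size scaling. No pairing of libraries by replicate number was seen. Deviations of same-numbered libraries correlated between -0.238 and 0.145, and those of other numbers between -0.173 and 0.280. With so few libraries, this check cannot show that no batch was shared. The block changed no other call of the 8 genes. The smallest library and the few reads of Fabp4 and Cd36 limit what could be detected.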
